A study of Mus musculus with 6 samples.

Results

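The 30 genes described here encode enzymes of cholesterol and fatty acid synthesis, the proteins that control their transcription and a sterol carrier. They were chosen by gene symbol, and all 30 were found among the 23238 symbols counted in mouse lung. Wild-type mice were given PM or, as vehicle, phosphate-buffered saline (PBS), and RNA of their lung tissue was sequenced. Both were given by the route abbreviated i.t., and the series title calls the exposure chronic. The sources used here do not spell out PM or state its dose, the duration, or the strain and age of the mice. Of 6 deposited samples, 3 were PM and 3 PBS, but the table of PBS replicate 2 repeats that of PBS replicate 1 in each of its 23282 entries, and the pair counts as 1 library, PBS replicate 1. The comparison is thus of 3 PM libraries with 2 PBS libraries. The labels do not say whether each sample was a separate animal, so the p-values speak only of the spread between libraries, which may be technical.

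Cholesterol is built from acetyl-CoA through mevalonate, isoprenoid diphosphates, squalene and lanosterol. Fatty acids are built from cytosolic acetyl-CoA by carboxylation, chain assembly, elongation and desaturation, with reducing power from NADPH. Transcription of both sets of enzymes is driven by the sterol regulatory element-binding proteins (SREBPs), which SCAP escorts out of the endoplasmic reticulum when sterols are low and INSIG proteins hold back when sterols are high. In the lung, alveolar type 2 cells make fatty acids and cholesterol for surfactant, and alveolar macrophages take surfactant lipid up.

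Total counts ran from 7410200 to 8827202 per library, and the 30 genes together took 0.248% to 0.269% of counts in PM and 0.216% and 0.242% in PBS. Lung markers were abundant in every library: Sftpc, a surfactant protein of alveolar type 2 cells, stood at 9232 to 12218 CPM in PM and at 9540 and 11299 CPM in PBS, where CPM are counts brought to a common library total and scaled between libraries by TMM (trimmed mean of M values). In pieces of tissue, fewer cells of a type and less RNA per cell cannot be told apart.

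The promoters of 4 of the genes with the clearest differences, Elovl6, Me1, Mvd and Fasn, are shown with that of Hmgcs1, a classical SREBP target whose PM and PBS libraries overlapped. Each runs from 250 bases before to 50 after a RefSeq start site in GRCm38.p6, 5′ to 3′ on the gene's strand. Capitals mark letters matching, on either strand, the sterol regulatory element core TCACNCCAC, or the CCAAT box, letters CCAAT, or the Sp1 box, letters GGGCGG. For Me1 the start site farther upstream is shown.
Elovl6, chr3:129532136-129532435, plus strand: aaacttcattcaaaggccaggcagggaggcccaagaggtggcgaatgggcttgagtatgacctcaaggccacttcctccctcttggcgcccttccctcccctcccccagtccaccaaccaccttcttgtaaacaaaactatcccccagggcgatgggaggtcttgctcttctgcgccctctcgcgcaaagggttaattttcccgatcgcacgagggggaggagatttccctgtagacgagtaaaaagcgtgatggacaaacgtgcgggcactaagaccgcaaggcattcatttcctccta
Me1, chr9:86695865-86696164, minus strand: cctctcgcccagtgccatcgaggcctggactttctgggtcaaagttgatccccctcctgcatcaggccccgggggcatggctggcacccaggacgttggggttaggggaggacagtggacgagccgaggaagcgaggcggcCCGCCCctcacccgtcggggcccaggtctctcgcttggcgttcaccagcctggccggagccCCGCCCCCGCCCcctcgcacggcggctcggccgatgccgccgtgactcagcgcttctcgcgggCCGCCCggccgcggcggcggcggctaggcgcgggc
Mvd, chr8:122443373-122443672, minus strand: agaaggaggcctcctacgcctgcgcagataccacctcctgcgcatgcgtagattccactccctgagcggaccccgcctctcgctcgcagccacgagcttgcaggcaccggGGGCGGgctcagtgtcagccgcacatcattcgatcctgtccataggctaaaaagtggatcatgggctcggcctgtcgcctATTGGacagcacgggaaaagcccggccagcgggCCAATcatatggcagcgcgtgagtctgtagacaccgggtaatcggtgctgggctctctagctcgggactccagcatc
Fasn, chr11:120824498-120824797, minus strand: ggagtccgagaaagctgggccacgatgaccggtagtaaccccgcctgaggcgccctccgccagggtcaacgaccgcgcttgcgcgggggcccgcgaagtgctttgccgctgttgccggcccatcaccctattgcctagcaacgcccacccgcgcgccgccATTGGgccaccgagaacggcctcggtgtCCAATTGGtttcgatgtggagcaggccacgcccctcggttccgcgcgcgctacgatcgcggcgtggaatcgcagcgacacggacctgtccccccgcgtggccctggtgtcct
Hmgcs1, chr13:119690101-119690400, plus strand: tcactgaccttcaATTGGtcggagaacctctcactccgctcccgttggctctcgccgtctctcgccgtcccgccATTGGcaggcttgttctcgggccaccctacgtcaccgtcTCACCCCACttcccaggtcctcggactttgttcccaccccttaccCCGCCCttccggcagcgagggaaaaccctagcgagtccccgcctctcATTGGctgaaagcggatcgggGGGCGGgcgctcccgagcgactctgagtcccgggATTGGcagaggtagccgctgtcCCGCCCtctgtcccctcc

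Of the 30 genes, 24 had a promoter in the RefSeq table, 31 promoters in all, and matches of different motifs overlapped in 0 cases. The sterol regulatory element core was found in 1 gene's promoter, that of Hmgcs1, 137 bases before the start site, against 1.24% of 32851 promoters of the same length. A CCAAT box was in 22 of the 31 promoters (71%), against 37.4% of all promoters, and an Sp1 box also in 22 (71%), against 35.7%. The printed Elovl6 promoter held no match, and that of Me1 held Sp1 boxes but no CCAAT box. A CCAAT box was in promoters of 8 of the 9 genes matched among those with no overlap between PM and PBS, and of 13 of the 15 matched among the rest. A match is only a run of letters, and no match says only that the letters are not in this window.

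None of the 30 genes passed the test over all genes. All 30 were tested, and 0 rose and 0 fell, where 0.142% of 14057 tested genes rose and 0.0854% fell (adjusted p below 0.05 by the quasi-likelihood test of edgeR). The differences that were present pointed up. Before adjustment, 7 of the 30 were higher in PM at a p below 0.05 and 0 were lower, against 7.26% and 6.05% of all tested genes. The 3 PM libraries exceeded both PBS libraries for 12 of the 30 and fell short of both for 0, against 15.5% and 16.1% of all tested genes. The median log2 fold, PM minus PBS, was 0.16 over the 30 genes and 0.01 over all tested genes, and 23 of the 30 folds were positive. DESeq2, run on the same counts, called 2 of the 30 higher, Elovl6 and Me1, and 0 lower, where it called 1.90% of all tested genes higher. The voom method of limma called 0 of the 30 and 0.121% of all tested genes in either direction.

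**Figure D1:**
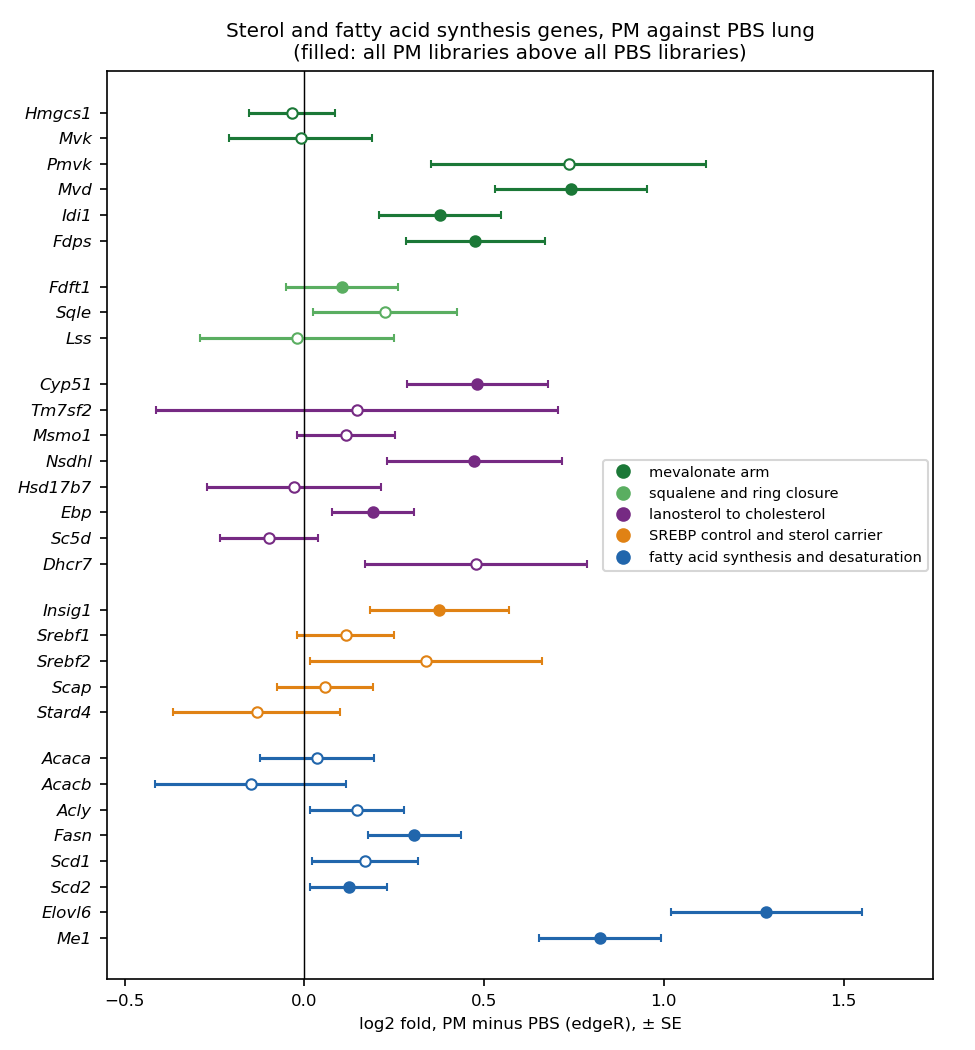
Log2 fold of each of the 30 genes, PM minus PBS, with its SE from edgeR, grouped by pathway arm; filled points are genes whose 3 PM libraries all lay above both PBS libraries. Elovl6 at 1.28 and Me1 at 0.82 stand farthest to the right, and 7 of 30 folds are below 0.

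For these genes the 2 PBS libraries were not alike. PBS replicate 3 was below PBS replicate 1 for 22 of the 30 genes, against 49.8% of all tested genes, and was the lowest of all 5 libraries for 17 of the 30, against 20.2% of tested genes. The summed level of 11 alveolar type 2 markers was likewise lowest in PBS replicate 3, at 28070, 25975 and 26035 CPM in PM replicates 1, 2 and 3 and at 26382 and 21102 CPM in PBS replicates 1 and 3. Of the 11, 0 were called and the median log2 fold was 0.18. Before adjustment 2 were higher at a p below 0.05, Sftpa1 (log2 fold 0.40) and Sftpd (0.88), and 0 were lower. All PM libraries exceeded both PBS libraries for 3 and fell short of both for 0. Over all tested genes the shares were 7.26% higher before adjustment and 15.5% with all PM libraries above. The part of alveolar type 2 cells in the values of the 30 genes was not tested. The part of PBS replicate 3 in the result was not tested. With it left out, all PM libraries exceeded PBS replicate 1 for 12 of 30 and fell short of it for 2, against 26.5% of tested genes above. Without PBS replicate 3, 2 of the 30 genes were higher before adjustment, against 3.89% of tested genes, 0 were lower, and the median log2 fold was 0.12. Without PBS replicate 1, 8 were higher, against 4.71%, the median was 0.22, and all PM libraries exceeded the remaining one for 20 of 30, against 27.6% of tested genes.

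The genes differ widely in level. Per kilobase of exon, Scd1 was the most abundant, at 180 CPM per kb on average in PM and 160 in PBS, followed by its close relative Scd2, at 62.8 in PM and 57.6 in PBS. Both encode stearoyl-CoA desaturases, which place the double bond of oleate, and reads may be divided between the near-identical Scd genes. Ebp, Hmgcs1, Acly and Fasn came next in PBS, at 38.0, 23.8, 26.1 and 26.0 CPM per kb in PM and 33.3, 24.3, 23.6 and 21.0 in PBS. The ranges of Hmgcs1, Acly and Fasn overlapped within each group. At the low end, Elovl6 stood at 2.42 CPM per kb in PM and 0.994 in PBS, Lss at 0.914 in PM and 0.929 in PBS, and Tm7sf2 at 0.561 in PM and 0.505 in PBS.

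**Figure D2:**
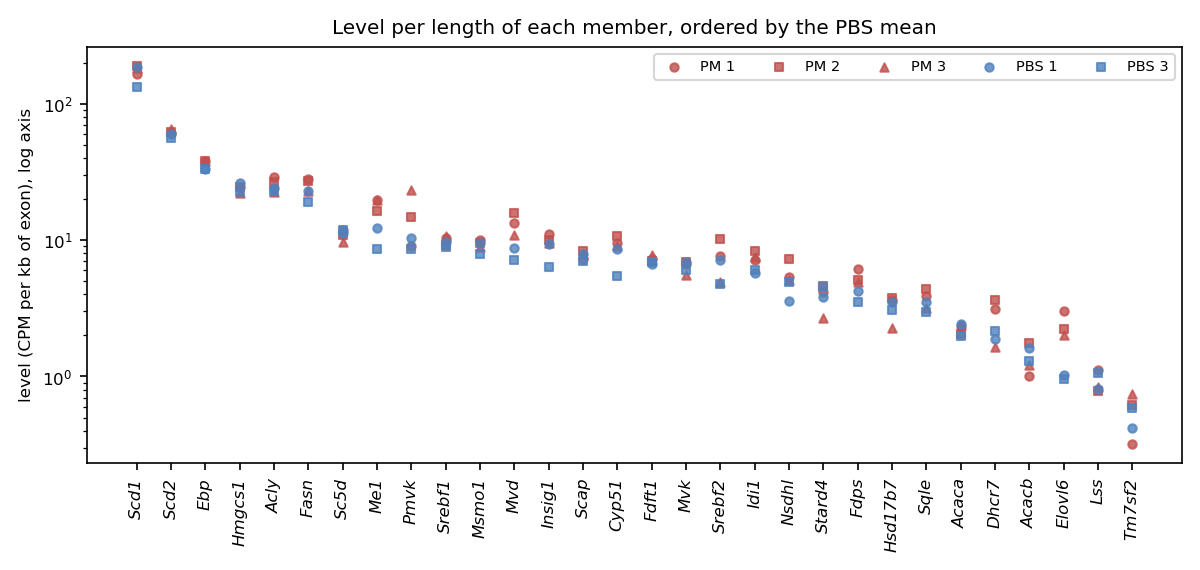
Level of each of the 30 genes in every library, in CPM per kilobase of exon on a log axis, ordered by the PBS mean. Scd1 lies highest and Tm7sf2 lowest, and the PM points of Elovl6 and Me1 stand apart above their PBS points.

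Among the fatty acid genes, Elovl6 and Me1 showed the largest differences of all 30. Elovl6 is the elongase that extends palmitate to stearate. It stood at 19.5, 14.3 and 12.9 CPM in PM replicates 1, 2 and 3 and at 6.61 and 6.17 CPM in PBS replicates 1 and 3. All PM libraries were well above both PBS libraries. The log2 fold was 1.28 ± 0.27 SE, a 2.44-fold difference, with an adjusted p of 0.0612 by edgeR's quasi-likelihood test, just outside the threshold. Elovl6 lies on chromosome 3 at 129532386 to 129638495 in GRCm38, and its raw counts were 100 to 167 in PM and 50 and 57 in PBS.

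Me1 is the cytosolic malic enzyme, which yields NADPH for lipid synthesis. Its level was 75.2, 62.8 and 76.0 CPM in PM replicates 1, 2 and 3 and 47.4 and 33.2 CPM in PBS replicates 1 and 3. All PM libraries were higher, and the PBS libraries differed from each other by more than the PM libraries did. The log2 fold was 0.82 ± 0.17 SE (1.77-fold), with an adjusted p of 0.0620 by edgeR. Me1 lies on chromosome 9 at 86581363 to 86695914 in GRCm38.

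Fasn, the multi-enzyme that assembles palmitate, had 307, 295 and 250 CPM in PM replicates 1, 2 and 3 and 249.5 and 210 CPM in PBS replicates 1 and 3. The groups did not overlap, but PM replicate 3 was level with PBS replicate 1. Its log2 fold was 0.31 ± 0.13 SE (adjusted p = 0.335 by edgeR), and it was 0.19 without PBS replicate 3. It lies on chromosome 11 at 120805958 to 120825166.

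The other enzymes of this arm showed small differences. Scd1 had 812, 927 and 899 CPM in PM and 913 and 650 CPM in PBS, with a log2 fold of 0.17 ± 0.15 SE. PBS replicate 1 exceeded PM replicates 1 and 3, so the groups overlapped. Scd2 had 331, 341 and 357 CPM in PM and 326 and 304 CPM in PBS, with no overlap and a log2 fold of 0.12 ± 0.11 SE, or 0.07 without PBS replicate 3. Acly, which makes cytosolic acetyl-CoA from citrate, was at 0.15 ± 0.13. Acaca and Acacb, the acetyl-CoA carboxylases that make malonyl-CoA, were at 0.04 ± 0.16 and -0.15 ± 0.27. The median over the 8 genes was 0.16, with 0 called, 3 higher at an unadjusted p below 0.05 and 4 without overlap. This median was 0.32 without PBS replicate 1 and 0.09 without PBS replicate 3. For comparison, 0.142% of all tested genes rose and 0.0854% fell by adjusted p. Before adjustment 7.26% of them passed on the higher side, and in 15.5% each PM library exceeded both PBS libraries. Summed over all 8 genes, the level was 1748, 1833 and 1765 CPM in PM and 1728 and 1370 CPM in PBS, with PBS replicate 1 close to PM replicate 1. Over the 6 genes other than the abundant Scd1 and Scd2, it was 605, 565 and 509 CPM in PM and 489 and 416 CPM in PBS.

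**Figure D3:**
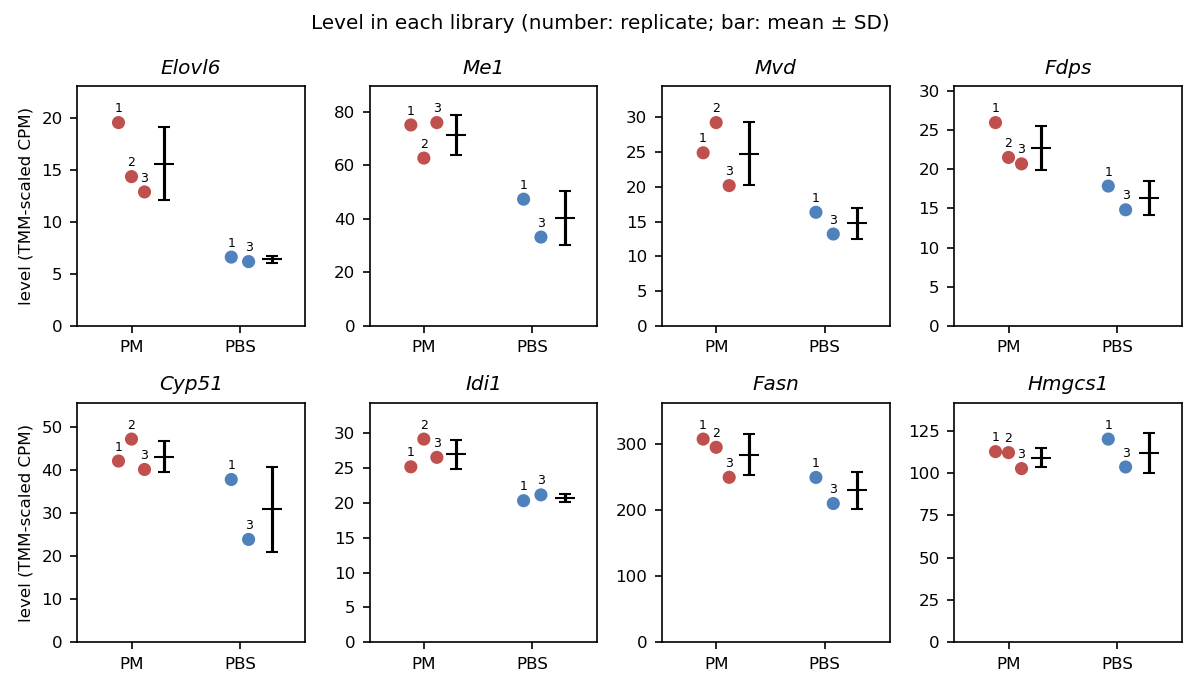
Level in each library, in TMM-scaled CPM, of the 7 genes with an unadjusted p below 0.05 and of Hmgcs1, with PM left of PBS, the replicate number at each point and the mean ± SD as a bar. For all but Hmgcs1 the 3 PM points lie above both PBS points.

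In the mevalonate arm the libraries of Hmgcs1 and Mvk overlapped between groups, whereas all PM libraries were above both PBS libraries for Mvd, Idi1 and Fdps. Hmgcs1, which makes HMG-CoA, had 113, 112 and 103 CPM in PM replicates 1, 2 and 3 and 120 and 104 CPM in PBS replicates 1 and 3. The groups overlapped, with a log2 fold of -0.04 ± 0.12 SE. Mvk, mevalonate kinase, was at -0.01 ± 0.20.

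Mvd, which decarboxylates mevalonate diphosphate to isopentenyl diphosphate, had 24.9, 29.2 and 20.2 CPM in PM and 16.3 and 13.2 CPM in PBS. All PM libraries were higher, with a log2 fold of 0.74 ± 0.21 SE and an adjusted p of 0.151 by edgeR. Mvd lies on chromosome 8 at 122433596 to 122443422. Fdps, which makes farnesyl diphosphate, had 25.9, 21.5 and 20.7 CPM in PM and 17.8 and 14.8 CPM in PBS. Idi1, the isopentenyl diphosphate isomerase, had 25.1, 29.1 and 26.5 CPM in PM and 20.3 and 21.1 CPM in PBS. Neither overlapped between groups, and their log2 folds were 0.48 ± 0.19 and 0.38 ± 0.17 SE (adjusted p = 0.315 and 0.365 by edgeR).

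Pmvk, phosphomevalonate kinase, which acts just before Mvd, was uneven in PM. It had 15.4, 25.5 and 40.2 CPM in PM replicates 1, 2 and 3 and 17.6 and 14.8 CPM in PBS. PM replicate 1 lay between the PBS libraries, and the fold of 0.74 ± 0.38 SE ranged from 0.33 without PM replicate 3 to 1.02 without PM replicate 1. The median of the 6 genes of this arm was 0.43, with 0 called, 3 higher at an unadjusted p below 0.05 and 3 without overlap. Over all tested genes these shares were 7.26% higher and 15.5% with all PM libraries above.

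From squalene to lanosterol, no gene differed by much. Sqle, squalene epoxidase, had 21.5, 24.2 and 17.5 CPM in PM and 19.5 and 16.5 CPM in PBS. The groups overlapped, with a log2 fold of 0.23 ± 0.20 SE, which was 0.11 without PBS replicate 3 and 0.35 without PBS replicate 1. Fdft1, squalene synthase, was at 0.10 ± 0.16 and Lss, lanosterol synthase, at -0.02 ± 0.27. Shared exon bases are given here as the largest overlap with any single exon of the other gene, so the totals may be larger. Exons of Fdft1 share at least 774 bases with Ctsb, a cathepsin gene on the opposite strand. Reads of Fdft1 there cannot be told apart from those of Ctsb if counting ignored strand. Tm7sf2 shares 532 exon bases with the protein-coding gene Vps51 and Fdps 197 with Gm43738, both on the same strand, so that counting by strand would not separate them. The other overlaps among the 30 genes were 985 bases for Scap, 458 for Hmgcs1, 323 for Idi1, 188 for Lss, 166 for Cyp51, 109 for Srebf1 (with Rai1), 34 for Elovl6 and 30 for Me1, each with a gene on the opposite strand, and 66 for Srebf1 and 61 for Scd2 with microRNA genes on the same strand.

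Between lanosterol and cholesterol, Cyp51 was the clearest. Cyp51, the lanosterol 14-alpha-demethylase, had 42.2, 47.3 and 40.2 CPM in PM and 37.9 and 24.0 CPM in PBS. All PM libraries were higher, but PBS replicate 1 was closer to PM replicate 3 than to PBS replicate 3. The log2 fold was 0.48 ± 0.20 SE (adjusted p = 0.315 by edgeR), and it was 0.19 without PBS replicate 3 and 0.85 without PBS replicate 1. Nsdhl, a sterol dehydrogenase that acts in C4 demethylation, had 15.2, 20.6 and 14.5 CPM in PM and 10.2 and 14.0 CPM in PBS, at a log2 fold of 0.47 ± 0.24 SE, which was 0.26 without PBS replicate 1, 0.30 without PM replicate 2 and 0.71 without PBS replicate 3. Ebp, the sterol isomerase, had 88.2, 87.4 and 87.5 CPM in PM and 77.2 and 76.6 CPM in PBS. These were the tightest groups of the arm, separated by a log2 fold of 0.19 ± 0.11 SE.

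Dhcr7, the reductase that acts on 7-dehydrocholesterol, was split within PM. It had 18.2, 21.1 and 9.58 CPM in PM replicates 1, 2 and 3 and 10.9 and 12.5 CPM in PBS. PM replicate 3 was below both PBS libraries, and the log2 fold was 0.48 ± 0.31 SE, or 0.75 without PM replicate 3 and 0.26 without PM replicate 2. Msmo1, Tm7sf2, Hsd17b7 and Sc5d, which also act on this stretch, ranged from -0.10 to 0.15. Tm7sf2 had only 12 to 26 counts in any library. The median of the 8 genes was 0.17 (0.29 without PM replicate 1), with 0 called, 1 higher at an unadjusted p below 0.05 and 3 without overlap. The shares over all tested genes were 7.26% higher at that p and 15.5% with all PM libraries above. Summed over the 17 sterol enzymes of the 3 arms, the level was 589, 608 and 553 CPM in PM and 536 and 493 CPM in PBS.

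Among the control genes, none passed the test and only Insig1 had no overlap. Insig1, which retains the SCAP-SREBP complex in the endoplasmic reticulum and is itself an SREBP target, had 34.4, 31.1 and 29.6 CPM in PM and 29.1 and 19.8 CPM in PBS. PM replicate 3 was nearly level with PBS replicate 1. The log2 fold was 0.38 ± 0.19 SE (adjusted p = 0.442 by edgeR), and it was 0.12 without PBS replicate 3 and 0.68 without PBS replicate 1.

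Srebf2, the SREBP that mainly drives cholesterol synthesis, had 54.7, 72.7 and 35.7 CPM in PM replicates 1, 2 and 3 and 51.7 and 34.1 CPM in PBS replicates 1 and 3. Both groups spread widely and overlapped, with a log2 fold of 0.34 ± 0.32 SE. That fold was 0.07 without PBS replicate 3, 0.08 without PM replicate 2, 0.57 without PM replicate 3 and 0.67 without PBS replicate 1. Srebf1, the SREBP that mainly drives fatty acid synthesis, had 58.7, 51.6 and 60.2 CPM in PM and 54.7 and 50.3 CPM in PBS. It overlapped too, at 0.11 ± 0.13 SE. Scap had 53.8, 61.8 and 58.8 CPM in PM and 59.3 and 52.4 CPM in PBS, at 0.06 ± 0.13 SE. Stard4, a cytosolic sterol carrier, was at -0.13 ± 0.23. The counts measure RNA and not the cleavage by which SREBPs are activated.

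Genes of the same pathways outside the 30 also had no member past the test. For the counts before adjustment, the shares over all tested genes were 7.26% higher and 6.05% lower. Of 11 other enzymes or partners of sterol synthesis, 0 were called, 1 was higher and 0 were lower before adjustment, and the median log2 fold was 0.04. Of 9 tested genes of SREBP processing and sterol uptake, 0 were called or passed an unadjusted p of 0.05, with a median of 0.07. In that list 5 folds were above 0 and 4 below. Mbtps1, the protease that makes the first cut in SREBPs, had 136, 110 and 130 CPM in PM and 145 and 140 CPM in PBS, a log2 fold of -0.18. Mbtps2 went the other way, with 9.82, 9.17 and 7.82 CPM in PM and 6.95 and 6.91 CPM in PBS, a log2 fold of 0.37. Insig2 was at 0.32, with overlap between groups. Liver X receptor targets and sterol efflux or storage genes had a median of -0.06 over 12, with 0 called and 1 higher at an unadjusted p below 0.05. That gene was Ch25h, cholesterol 25-hydroxylase, at 9.82, 13.8 and 7.31 CPM in PM and 3.13 and 6.05 CPM in PBS (log2 fold 1.16, adjusted p = 0.202 by edgeR).

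Other genes of fatty acid synthesis, elongation and desaturation had a median of 0.07 over 22 tested, with 0 called. Before adjustment 3 were higher and 1 was lower at a p below 0.05, against 7.26% and 6.05% of all tested genes. The 3 were Pgd, Idh1 and Thrsp. Pgd and Idh1 encode further cytosolic enzymes that yield NADPH, as Me1 does. Pgd had 90.2, 86.6 and 97.2 CPM in PM and 60.4 and 66.9 CPM in PBS, a log2 fold of 0.52 (edgeR adjusted p = 0.0940). Idh1 had 113, 130 and 134 CPM in PM and 99.8 and 88.0 CPM in PBS, a log2 fold of 0.42 (edgeR adjusted p = 0.169). For both, every PM library was above both PBS libraries. G6pdx, the first NADPH-yielding enzyme of the pentose phosphate pathway, overlapped between groups, at a log2 fold of 0.20. Fads3, a desaturase family member, was the lower one, with 44.2, 42.7 and 42.4 CPM in PM and 63.6 and 57.3 CPM in PBS, a log2 fold of -0.49 (edgeR adjusted p = 0.129). Glycerolipid synthesis genes had a median of 0.09 over 11 and fatty acid oxidation genes one of -0.03 over 13, with 0 called in either. Cpt1a, the mitochondrial carnitine palmitoyltransferase, had 54.1, 51.2 and 47.9 CPM in PM and 62.2 and 71.4 CPM in PBS, a log2 fold of -0.39 (edgeR adjusted p = 0.220).

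Markers of other lipid-making or lipid-handling cells also differed between libraries. The sum of 12 white and brown fat markers was 178, 86.4 and 154 CPM in PM replicates 1, 2 and 3 and 81.6 and 78.9 CPM in PBS replicates 1 and 3. Of these markers 7 were tested, 0 were called and 4 were higher at an unadjusted p below 0.05, against 7.26% of all tested genes. Adipoq, the fat cell hormone adiponectin, had 10.4, 1.29 and 10.7 CPM in PM and 1.62 and 0.741 CPM in PBS, and Ucp1, which defines brown fat, was at 0 counts in every library. Thrsp, a lipogenic gene strongly expressed in fat, had 21.5, 11.6 and 15.6 CPM in PM and 8.34 and 6.17 CPM in PBS, a log2 fold of 1.16 (edgeR adjusted p = 0.120). Cidea, a lipid droplet protein best known from brown fat, had 2.92, 5.45 and 4.16 CPM in PM and 0.464 and 0.370 CPM in PBS, a log2 fold of 3.27, with the lowest adjusted p of the list (0.0530 by edgeR). Its PBS levels were near that of 3 counts, which before TMM scaling is 0.340 CPM in PBS replicate 1 and 0.392 CPM in PBS replicate 3. The size of this fold thus rests on very few PBS reads. Adipoq was lowest within PM in replicate 2, and Cidea was highest there. Much of the sum in PM replicate 2 and in PBS was Lipe, hormone-sensitive lipase, with 58.6, 58.3 and 47.2 CPM in PM and 55.2 and 66.4 CPM in PBS. The part of fat in the levels of Elovl6 and Me1 was not tested.

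**Figure D4:**
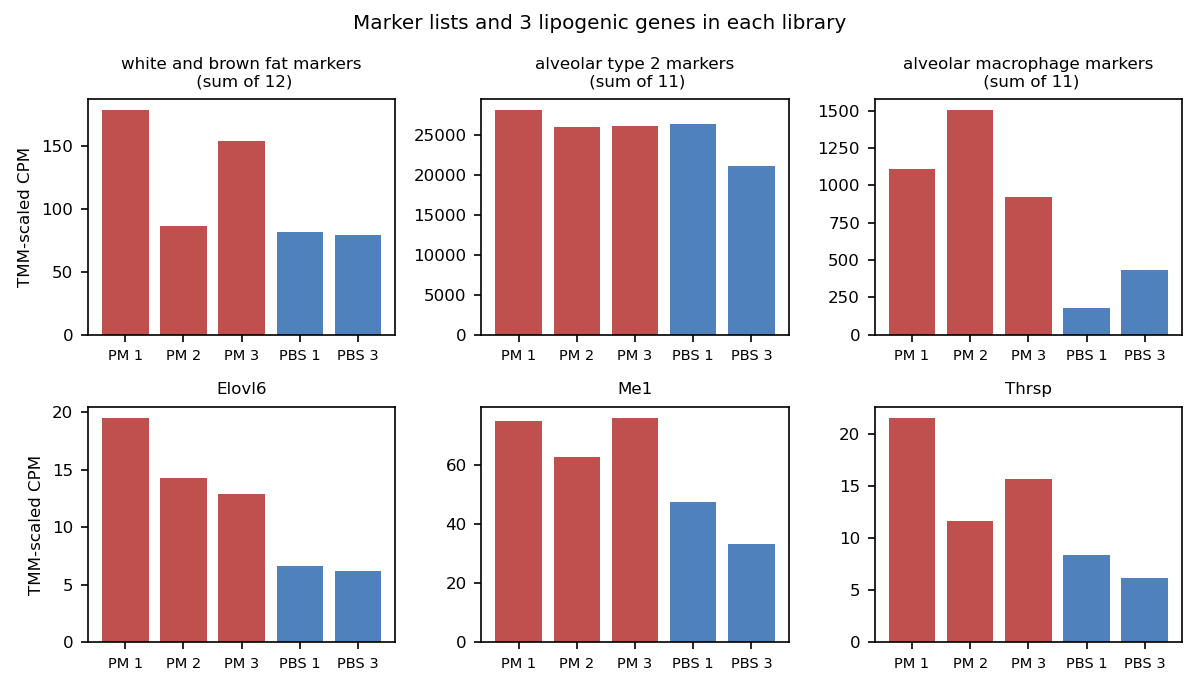
Bars give, for each library, the summed TMM-scaled CPM of fat, alveolar type 2 and alveolar macrophage markers (upper row) and the level of Elovl6, Me1 and Thrsp (lower row), with PM in red and PBS in blue. The fat sum is 178, 86.4 and 154 CPM in PM and 81.6 and 78.9 CPM in PBS, and the PM bars of Elovl6, Me1 and Thrsp are all above their PBS bars.

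The 11 alveolar macrophage markers summed to 1109, 1503 and 920 CPM in PM and 176 and 434 CPM in PBS, with 0 called, 4 higher at an unadjusted p below 0.05 and 7 without overlap. Much of the PM sum was Chil3, with 591, 1014 and 453 CPM in PM and 18.2 and 127 CPM in PBS. Marco, Pparg, Siglecf and Fabp1 overlapped between groups, Fabp1 at a log2 fold of -0.60. The 8 lipofibroblast and alveolar fibroblast markers summed to 3793, 3080 and 3366 CPM in PM and 5517 and 5253 CPM in PBS, with 1 that fell, Limch1 (adjusted p = 0.0379 by edgeR), and 7 of the 8 lower in every PM library than in both PBS libraries. The 8 cell cycle markers summed to 85.9, 201 and 38.3 CPM in PM and 29.2 and 22.0 CPM in PBS, with 0 called, 7 higher at an unadjusted p below 0.05 and 6 without overlap. Of the 8 goblet and club cell markers 7 were tested, with 0 called, 4 higher at an unadjusted p below 0.05 and 5 without overlap. Scgb3a1, a secretoglobin of airway secretory cells, had 311, 739 and 351 CPM in PM and 24.1 and 10.2 CPM in PBS, at an adjusted p of 0.158 by edgeR. Clca1, a goblet cell gene, had 288, 1161 and 33.9 CPM in PM and 0 in both PBS libraries. The sum of the 8 markers, 16666, 23871 and 31951 CPM in PM and 20477 and 21007 CPM in PBS, is mostly the club cell gene Scgb1a1, which overlapped between groups at a log2 fold of 0.15. Over all tested genes, 15.5% had every PM library above both PBS libraries and 16.1% had every PM library below both. At an unadjusted p below 0.05, 7.26% were higher and 6.05% lower, and by adjusted p 0.142% rose and 0.0854% fell. The part of these cells in the values of the 30 genes was not tested.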

How the data were processed

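RNA was sequenced from 6 lung samples. Per the labels' protocols, an easy-BLUE kit gave the RNA and a SENSE mRNA-Seq kit the libraries. TopHat, Cufflinks and mm10 are named in the submitters' processing notes; the sources used here give no versions, counting program, annotation or strand use. The authors deposited raw counts per gene symbol.

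PBS replicate 2 repeated PBS replicate 1 and was left out, although the planned test named 6 samples. A blank entry and 44 repeated symbols with lower totals were set aside. PM was compared with PBS by edgeR 4.0.16 (R 4.3.3; filterByExpr, TMM, robust quasi-likelihood test, two-sided, no covariates), with Benjamini-Hochberg adjustment over 14057 genes at 0.05. SE was derived from the fold and the F statistic. The procedure was tested on simulated data. Alternatives were other scaling and filters, DESeq2 1.42.0, limma 3.58.1 (voom), left-out libraries and a replicate block. Counts at an unadjusted p and non-overlap counts were added after the data were seen.

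Exon lengths and overlaps are from GENCODE M21 and coordinates from RefSeq, both GRCm38, the same assembly as mm10; promoter sequences are RefSeq's. All 30 symbols matched. Of 30 genes, 12 share exon bases with another annotated gene. Members and lists were chosen with earlier results of these data known. All 30 members are accounted for; those with an unadjusted p below 0.05, the largest change of each arm and the regulators were given in every library, and genes of other lists were named only in part.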

Additional observations from a re-analysis of the deposited data

How the results depend on the processing

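In edgeR's test with Benjamini-Hochberg adjustment 0 of the 30 genes were called higher. The count was 2 with no filter on low counts, with DESeq2, with all 6 tables as deposited and at an adjusted p of 0.10, each time Elovl6 and Me1. Leaving out each library gave 0 to 3 higher calls (Me1 without PM replicate 2; Mvd, Elovl6 and Me1 without PM replicate 3) and 0 lower. Where 1 PBS library is left, it is assumed to vary like the PM libraries. With the replicate number as a block 2 were called, Elovl6 and Me1, and over all genes 353 against 32; PM replicate 2 then has no partner, and the labels do not say that the numbers mark pairs. Deviations of same-numbered libraries correlated at -0.03 and 0.07, but with 2 PBS libraries these values mirror those of unlike numbers, so whether the numbers pair the samples cannot be told. Lower calls stayed at 0 in the alternatives that kept both PBS libraries. The median log2 fold ran from 0.12 without PBS replicate 3 to 0.22 without PBS replicate 1. These shifts were within the pooled SD of the library medians, 0.094. That SD itself holds the difference between PBS replicates 1 and 3, with medians of 0.101 and -0.101. Staying within it therefore says little about how far the median depends on the PBS library.

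At an unadjusted p below 0.05 the higher count was 7, against 7.26% of all tested genes. It became 4 without PM replicate 1, against 6.37%, and 4 without PM replicate 2, against 6.36%. The count also fell without PBS replicate 3, where the median log2 fold of the 30 genes was 0.12. Over all genes, calls numbered 32, and 275 with no filter, 81 at 1 CPM in 2 libraries, 382 with DESeq2, 17 with limma-voom, 23 with non-robust estimation, 635 with all 6 tables, and 12, 106 and 427 without PM replicates 1, 2 and 3 and 1 and 6 without PBS replicates 1 and 3. Of 420 recomputed folds of the 30 genes, 22 changed sign, none of them called, and for each the cause was not tested. With each library left out, the log2 folds of these genes ranged as follows: Hmgcs1 (-0.14 to 0.077), Mvk (-0.11 to 0.094), Lss (-0.20 to 0.18), Tm7sf2 (-0.12 to 0.44), Msmo1 (-0.0038 to 0.25), Hsd17b7 (-0.15 to 0.17), Scap (-0.032 to 0.15), Stard4 (-0.29 to 0.070), Acaca (-0.11 to 0.20), Acacb (-0.40 to 0.026) and Scd1 (-0.056 to 0.44). Lss was also above 0 with the block (0.077) and with all 6 tables (0.051), and Acaca was at -0.0092 with all 6 tables. With 2 PBS libraries, small differences were not detectable for low-count genes such as Tm7sf2.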
